A study of Mus musculus with 42 samples.

Results

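CXC chemokine ligands are small secreted proteins that draw leukocytes along a concentration gradient by binding G protein-coupled receptors. Cxcl1, Cxcl2, Cxcl3 and Cxcl5 bind Cxcr2 and attract neutrophils, and in many cells their transcripts are low at rest and rise through NF-κB signaling after IL-1 or, with more stable mRNA, after IL-17. Cxcl12, the ligand of Cxcr4, Cxcl13, the ligand of Cxcr5 that guides B cells into follicles, Cxcl14, a ligand of fibroblasts and epithelia, and Cxcl16, the membrane-bound ligand of Cxcr6, are usually counted as homeostatic. These 8 ligands were chosen by name, 4 neutrophil-attracting and 4 homeostatic, and are 8 of 19227 gene names that occur in the 12 tables of the study.

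The study asked how BMP signaling in Gli1+ stromal cells of the mouse colon acts on mucus-secreting goblet cells, and whether IL-1 and IL-17 carry that effect. RNA-seq was made of 42 samples. Gli1-tdTomato+ stromal cells and Muc2-mCherry+ goblet cells were each sorted from both colon segments, proximal and distal, with 2 libraries per group, and colonic organoids of wild-type mice made the other 18 samples, 3 per group.

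All sorted cells came from mice with Gli1-CreERT2, 2 to 4 months old and of both sexes, that had received tamoxifen on 5 consecutive days and were analysed on day 30. GWTT (stroma) and GWTM2 (goblet cells) mice kept Smad4 and Alk3 and were the controls. GS4T and GS4M2 mice carried loxP-flanked Smad4, and GA3T and GA3M2 mice carried loxP-flanked Alk3, the BMP receptor gene listed as Bmpr1a. The Cre acts in Gli1+ cells, so the goblet cells of these mice were not the cells in which the genes were deleted. Whether 1 mouse or a pool gave a library is not in the labels, so the p-values measure the spread between these libraries, which may be technical. Organoids were left untreated or received 10 nM IL-1 (IL-1α and IL-1β together) or 10 nM IL-17A for 12 h or 72 h.

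Libraries held 14222902 to 23686940 reads on named genes (median 17158199). Values are normalized counts, the reads of a gene divided by 1 size factor per library. Each table was normalized by itself, so that the same control library reads slightly differently in each table. The 18 organoid samples were 16 distinct libraries: untreated replicate 2 at 12 h held the same reads as untreated replicate 1 at 72 h, and untreated replicate 4 at 12 h the same reads as untreated replicate 4 at 72 h, with 0 differing rows among at least 14364 shared ones. To which time these 2 libraries belong cannot be told. Replicates 3 and 4 of IL-1 and of IL-17A at 12 h and untreated replicates 2 and 4 at 72 h were far closer to each other than other organoid pairs, with a mean chi-square per gene of 3.12 to 3.46 against 28.7 to 235 elsewhere. They still differed beyond sampling noise and were kept apart, and they may be repeats of 1 culture each, which the labels do not say. With each such pair averaged the call of Cxcl2 after IL-1 at 12 h and those after IL-17A at 72 h were lost. A ligand was called where limma gave a Benjamini-Hochberg adjusted p under 0.05 over all genes tested and a log2 fold change of at least 1, and all adjusted p below are from limma unless another tool is named. Genes needed a mean of 10 normalized counts in a table to be tested. Of the 96 pairs of ligand and table, 67 had a row, 60 passed this filter, and 4 tables, those of the stroma, listed all 8 ligands.

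Smad4 in the stroma was 1604 and 1673 normalized counts in proximal GWTT cells and 705 and 835 in proximal GS4T cells. Distal Smad4 was 1781 and 1703 in GWTT cells and 680 and 1171 in GS4T cells. Bmpr1a was 2960 and 3220 in proximal GWTT cells and 2233 and 1842 in GA3T cells, and 3359 and 3485 against 2203 and 2043 in the distal colon. Each targeted transcript was thus lower in both knockout libraries and present in all of them. Gli1 itself, whose promoter drives the Cre, was 642 to 1634 normalized counts in 7 of the 8 libraries of the GS4T tables. It was 23.9 in proximal GS4T replicate 2, and in the GA3T tables it was 34.7 in proximal GA3T replicate 2 against 676 to 1864 in the other 7 libraries. Calls that limma made with these 2 libraries are also given without them, while calls of DESeq2 in proximal stroma are given with all libraries.

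Cxcl1, Cxcl2, Cxcl3 and Cxcl5 lie close together on mouse chromosome 5. In GENCODE M21 on GRCm38, Cxcl5 (ENSMUSG00000029371) spans chr5:90759360-90761624, Cxcl3 (ENSMUSG00000029379) chr5:90786103-90789600, Cxcl1 (ENSMUSG00000029380) chr5:90891241-90893115 and Cxcl2 (ENSMUSG00000058427) chr5:90903871-90905938, all on the forward strand. As paralogs, they may share reads, and how the authors' counting split such reads is not given in the sources used here. Cxcl13 (ENSMUSG00000023078, chr5:95956951-95961068, forward strand) lies farther along the same chromosome. Cxcl12 (ENSMUSG00000061353) is at chr6:117168535-117181367 on the forward strand and Cxcl14 (ENSMUSG00000021508) at chr13:56288643-56296551 on the reverse strand. Cxcl16 (ENSMUSG00000018920, chr11:70453983-70459984, reverse strand) overlaps the start of Zmynd15 (chr11:70459433-70466202) on the other strand, and without a stated strand setting reads in the overlap cannot be assigned.

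The promoters of the neutrophil-attracting ligands and of Cxcl14 are shown because they are among the genes that rose most often. The RefSeq promoter table (GRCm38.p6, 250 bases before to 50 after each start) held 6 of the 8 ligands, all but Cxcl5 and Cxcl16. Below are 120 bases of each, 5′ to 3′ on the gene's strand, with a match to the κB consensus, the sequence that NF-κB binds, in capitals. Positions are counted from the RefSeq start, with -1 as the base before it, and each window was ended before the gene begins in either annotation, at -1 in Cxcl3 and Cxcl14, at -5 in Cxcl1 and at -29 in Cxcl2.
Cxcl1, chr5:90891121-90891240, forward strand: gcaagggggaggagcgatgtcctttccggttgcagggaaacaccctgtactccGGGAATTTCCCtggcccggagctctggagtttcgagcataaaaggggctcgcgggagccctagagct
Cxcl2, chr5:90903751-90903870, forward strand: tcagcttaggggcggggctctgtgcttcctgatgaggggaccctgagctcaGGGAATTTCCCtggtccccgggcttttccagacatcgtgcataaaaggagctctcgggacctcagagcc
Cxcl3, chr5:90785981-90786100, forward strand: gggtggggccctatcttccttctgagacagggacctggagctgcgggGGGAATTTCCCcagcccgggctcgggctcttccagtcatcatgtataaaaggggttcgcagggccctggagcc
Cxcl14, chr13:56296552-56296671, reverse strand: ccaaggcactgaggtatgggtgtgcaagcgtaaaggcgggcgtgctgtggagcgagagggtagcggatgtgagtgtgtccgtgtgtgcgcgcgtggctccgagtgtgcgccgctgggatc

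The capitals hold 2 overlapping matches, 1 on each strand. They began at -71 in Cxcl1, -97 in Cxcl2 and -73 in Cxcl3, counted in the same way. Within their 300 bases, the promoters of Cxcl12, Cxcl13 and Cxcl14 held no match on either strand, and 8.18% of 27025 mouse promoters in the table held one. The TATAAA box was found in Cxcl3 and Cxcl13 and in 14.2% of all promoters. The CAGAC motif, part of the Smad binding element, was found on either strand 1 time in Cxcl1, 3 times in Cxcl2, 1 time in Cxcl3, 2 times in Cxcl13, 1 time in Cxcl14 and not in Cxcl12, against 49.7% of all promoters with at least 1 match. These matches describe letters in the reference and are not measured binding.

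To compare ligands with each other, levels were set per length, as RPKM, the reads per kilobase of exon scaled to the reads of the library on named genes. In proximal GWTT stroma Cxcl12 led with a mean level of 148 (133 to 162 over the 2 libraries), followed by Cxcl1 at 115, Cxcl14 at 23.2, Cxcl16 at 13.4, Cxcl13 at 9.51, Cxcl2 at 7.45, Cxcl5 at 1.36 and Cxcl3 at 0.0441. The ranges of Cxcl16, Cxcl13 and Cxcl2 overlapped, and the other neighbours in this order did not. In distal GWTT stroma the order was Cxcl12 at 198.0, Cxcl1 at 88.5, Cxcl14 at 61.2, Cxcl13 at 40.2, Cxcl2 at 17.1, Cxcl16 at 10.0, Cxcl5 at 6.58 and Cxcl3 at 0.102, and no neighbours overlapped. Thus a homeostatic ligand and a neutrophil-attracting ligand held the first and second place in both segments.

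In the knockout stroma Cxcl14 took the first place in all 4 groups, with mean levels per length of 266 in proximal GS4T, 470.3 in distal GS4T, 225 in proximal GA3T and 315 in distal GA3T cells. In distal GS4T cells its range of 462 to 478 overlapped that of Cxcl13, 178 to 495. Cxcl12 made up 43.0% to 51.1% of the summed level of the 8 ligands in the 4 GWTT libraries, 19.0% to 19.1% in proximal GS4T, 21.7% to 28.1% in proximal GA3T, 10.8% to 25.8% in distal GA3T and 4.98% to 5.09% in distal GS4T libraries. The summed level itself was 308 to 432 in GWTT cells and 515 to 1356 in knockout cells. The neutrophil-attracting ligands together held 37.0% to 41.2% of it in proximal and 23.1% to 30.0% in distal GWTT libraries, and 18.6% to 36.0% in knockout libraries. Their share was thus below the controls in the proximal knockouts and overlapped the controls in the distal ones.

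**Figure D1:**
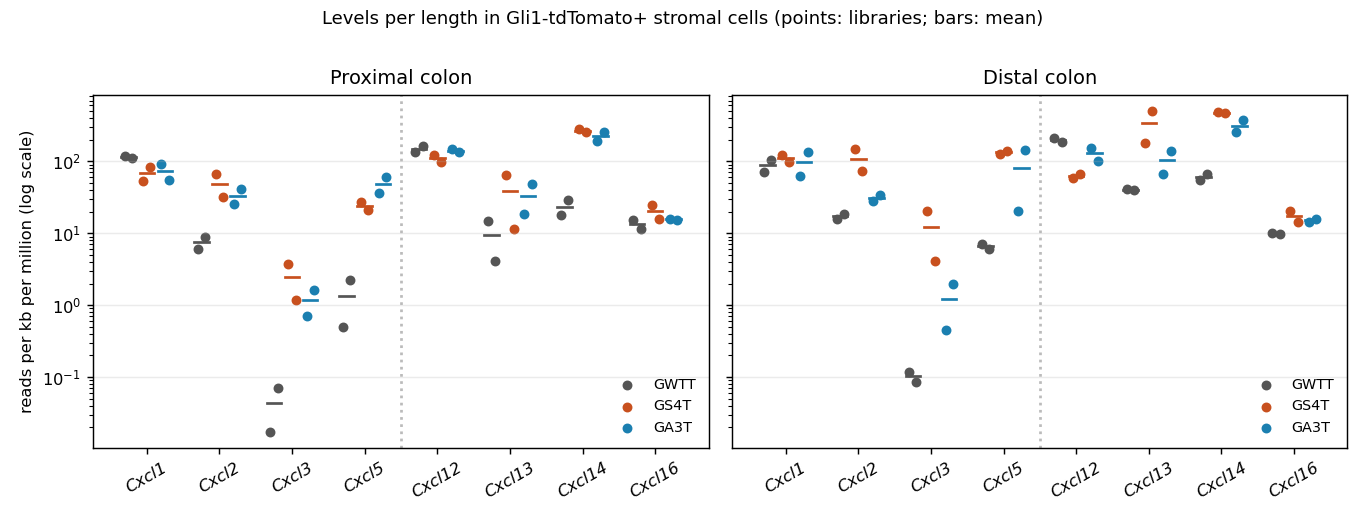
Levels of the 8 ligands in Gli1+ stroma, as RPKM on a log axis, in proximal and distal panels, with 1 point per library for GWTT, GS4T and GA3T. Cxcl12 is highest in GWTT cells (means of 148 and 198.0), Cxcl14 in every knockout group (means of 225 to 470.3), and Cxcl3 is lowest in each group.

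Control stroma and control goblet cells differed widely in these ligands. In 1 fit over the 24 sorted libraries the log2 difference of GWTT over GWTM2 cells was 9.28 for Cxcl1 (SE 0.521, adjusted p = 8.08e-10), 4.86 for Cxcl5 (SE 0.967, adjusted p = 0.000379) and 4.68 for Cxcl16 (SE 0.393, adjusted p = 5.38e-08) in the proximal colon. Distally it was 6.71 for Cxcl1 (adjusted p = 2.15e-08), 4.72 for Cxcl5 (adjusted p = 0.000485) and 4.61 for Cxcl16 (adjusted p = 5.93e-08). Of all genes tested 42.1% were called in each segment. Cxcl2, which the table of proximal GS4M2 cells did not list, was fitted on the rows of the GA3T and GA3M2 tables and was higher in stroma by 8.20 (adjusted p = 8.18e-06) and 7.54 (adjusted p = 1.48e-05), where 42.9% and 43% of genes were called. The other 4 ligands could not be tested, as the goblet cell tables did not list them in every comparison. The sorts differed in reporter as well as in cell type, and these cannot be told apart.

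Between the segments of control stroma, in 1 fit over the 12 stromal libraries, only Cxcl14 was called among the ligands. Proximal GWTT cells had less of it than distal ones, by a log2 difference of -1.41 (SE 0.266, adjusted p = 0.0355), with 1.32% of genes called. This call was lost without proximal GWTT replicate 1 (-1.09, adjusted p = 0.150), without distal GWTT replicate 1 (-1.55, adjusted p = 0.178) and without distal GWTT replicate 2 (-1.27, adjusted p = 0.201). The proximal minus distal differences of Cxcl5 (-2.58, SE 0.866, adjusted p = 0.189), Cxcl13 (-2.33, SE 0.900, adjusted p = 0.256), Cxcl2 (-1.20, SE 0.397, adjusted p = 0.185) and Cxcl12 (-0.41, SE 0.202, adjusted p = 0.386) had the same sign and were not called. Those of Cxcl1 (0.42, SE 0.406, adjusted p = 0.701) and Cxcl16 (0.42, SE 0.230, adjusted p = 0.449) had the opposite sign and were not called either.

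Deletion of Smad4 in Gli1+ stroma went with higher Cxcl2, Cxcl3, Cxcl5 and Cxcl14 in both segments, with higher Cxcl13 and lower Cxcl12 in the distal colon, and with no called change of Cxcl1 or Cxcl16. In proximal GS4T cells 3 of the 4 neutrophil-attracting ligands and 1 of the 4 homeostatic ones rose, where 9.6% of all genes were called, 5.24% higher and 4.36% lower. Cxcl3, here and in each stromal table below, passed the filter through the knockout libraries alone, so that its place in these counts and in the medians is no support. In distal GS4T cells 3 of 4 and 2 of 4 rose and 1 homeostatic ligand fell, where 13.9% of genes were called, 7.86% higher and 6.08% lower. Deletion of Alk3 gave 1 call, Cxcl14 in the proximal colon, where 0.358% of genes were called, 0.345% higher and 0.013% lower. In the distal colon GA3T cells had no called ligand, and limma called 0% of the 15414 genes there, with 1197 that passed the fold limit at p under 0.05 before adjustment. There DESeq2 on the recovered reads called 776 genes (4.76%), Cxcl3, Cxcl5, Cxcl13 and Cxcl14 among them.

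In counts of libraries, 5 of the 8 ligands of the proximal and 6 of the distal stroma had both GS4T libraries above both GWTT libraries, as had 34% and 34.4% of all genes. Cxcl1 and Cxcl12 in the proximal and Cxcl12 in the distal colon had both below, as had 31.4% and 33.1% of genes. For GA3T cells 5 ligands of the proximal and 6 of the distal stroma lay above (28.8% and 27.5% of genes), and 1 in each lay below (27.5% and 26.8%). The median log2 fold change of the neutrophil-attracting ligands was 3.54, 3.48, 3.24 and 1.94 in proximal GS4T, distal GS4T, proximal GA3T and distal GA3T cells, and that of the homeostatic ligands 1.18, 1.84, 1.09 and 0.92, beside medians over all genes between -0.01 and 0.03. In bulk samples such as these, fewer cells of a type and less RNA per cell cannot be told apart.

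Markers of other cells moved with these ligands. The summed normalized count of a list of 11 neutrophil markers, 10 of them with a row, was 57.9 to 134 in proximal GWTT and 1337 to 1703 in proximal GS4T cells, with 6 of 8 tested genes called higher, and 1 of 9, Ly6g, without proximal GS4T replicate 2. The distal sum was 73.6 to 122 in GWTT and 3548 to 5279 in GS4T cells, with 9 of 9 called higher. Of all genes 5.24% were called higher in proximal and 7.86% in distal GS4T cells. Ly6g, a marker used for mouse neutrophils, had no read in either proximal control library and was 331 to 452 in proximal GS4T cells. It passed the filter through the knockout libraries, as would any marker under 10 in the controls, and such calls are no support. The 2 listed neutrophil markers, led by Ly6g, also summed to 2015 to 2259 in untreated epithelial organoids at 72 h. Whether Ly6g in the stromal sort came from neutrophils was not tested. In GA3T cells the sum over the 7 listed markers was 265 to 913 proximally and 396 to 459 distally, against 56.6 to 128 and 81.5 to 125 in GWTT cells, with 0 of 6 called in each.

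The 11 macrophage markers summed to 3310 to 5360 in proximal GWTT and 16156 to 27897 in proximal GS4T cells (8 called higher, 3 without replicate 2), and to 10559 to 12301 and 20655 to 37568 in the distal colon (6 called higher). In GA3T cells they summed to 15224 to 26980 and 14810 to 20082, with none called. The 8 epithelial markers summed to 287 to 10078 in proximal GWTT and 22656 to 34601 in proximal GS4T cells (1 called higher, 0 without replicate 2). Distally they summed to 1305 to 3617 in GWTT and 12739 to 29917 in GS4T cells (8 called higher). In GA3T cells they summed to 10475 to 16517 proximally, against 302 to 10596 in GWTT cells. The distal GA3T sum was 9363 to 18827 against 1489 to 4116, with none called in either segment. The 8 stromal markers remained far above all of these, at 434127 to 548823 in the proximal GS4T table. Of them Lum was called lower in proximal GS4T cells (-1.78, and -2.25 without replicate 2), and 2 of 8 in distal ones. Of 6 endothelial markers Cdh5 (2.46) and Vwf (2.07) were called higher and Tek (-2.35) lower proximally. Without replicate 2 these values were 1.93, 1.74 and -2.55. Distally 1 was called lower. Of all genes 5.24% were called higher and 4.36% lower in proximal, and 7.86% and 6.08% in distal GS4T cells. Without replicate 2 that share is not given here. Neutrophils and macrophages also express Cxcl2 and Cxcl3, and the part of these cells and of epithelial cells in the ligand values was not tested.

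**Figure D2:**
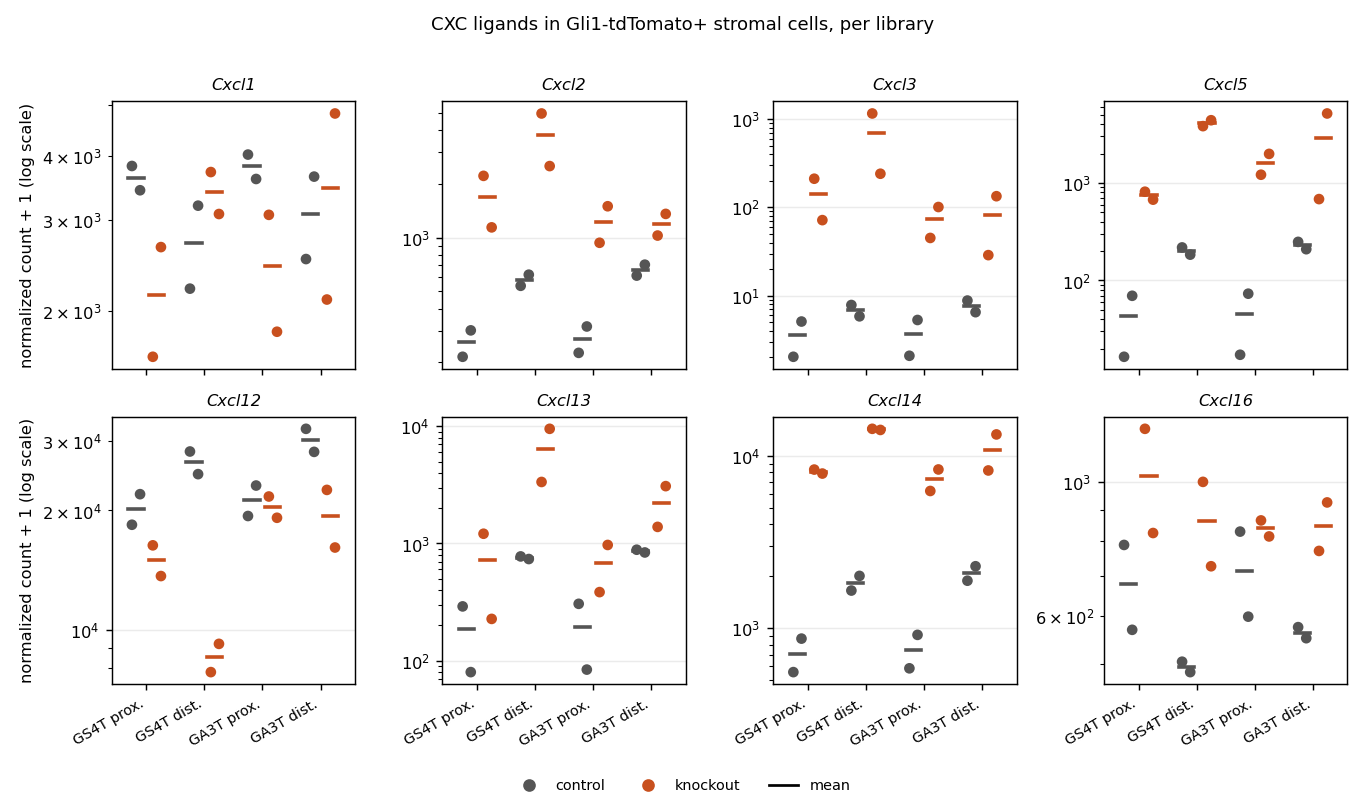
Normalized counts (plus 1, log axis) of the 8 ligands in each library of Gli1+ stroma, 1 panel per ligand, with GWTT controls in grey, knockouts in orange and bars at the group means. Cxcl14 lies at 552 to 2278 in control libraries and at 6237 to 14325 in knockout libraries, while Cxcl1 overlaps or lies lower in the knockouts.

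Cxcl1 was the most abundant neutrophil-attracting ligand of the control stroma and the one that did not rise. Cxcl1 was 3818 and 3428 normalized counts in proximal GWTT cells and 1633 and 2661 in proximal GS4T cells. Its distal values were 2212 and 3200 in GWTT cells and 3717 and 3084 in GS4T cells. In the proximal colon both GS4T libraries lay below the controls, and in the distal colon the groups overlapped. The fitted log2 changes were -0.79 (SE 0.242, adjusted p = 0.0867) and 0.35 (SE 0.2, adjusted p = 0.255). The difference between the segments, -1.16, had an interval of -2.46 to 0.14 (adjusted p = 0.620), where 0.0263% of genes were called, all of them higher.

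In GA3T cells Cxcl1 was 3072 and 1826 against 4017 and 3604 in the proximal colon, again below both controls. Distally it was 2107 and 4824 against 2523 and 3642, and the groups overlapped. The log2 fold changes were -0.68 (SE 0.263, adjusted p = 0.230) and 0.07 (SE 0.415, adjusted p = 0.940), and the distal value moved between -0.52 and 0.67 as single libraries were left out.

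Cxcl2, a ligand that macrophages and neutrophils also make, was 214 and 301 normalized counts in proximal GWTT cells and 2214 and 1139 in proximal GS4T cells. In the distal colon Cxcl2 was 536 and 619 in GWTT cells and 4950 and 2512 in GS4T cells. Every GS4T library lay above every control of its segment, and replicate 1 was the higher in both. Cxcl2 rose by log2 fold changes of 2.64 (SE 0.353, adjusted p = 0.0141) and 2.61 (SE 0.309, adjusted p = 0.00464). The proximal call was lost without proximal GS4T replicate 1 (2.16, adjusted p = 0.0766) and was kept without replicate 2, the library with little Gli1.

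In GA3T cells Cxcl2 was 934 and 1496 against 225 and 317 in the proximal colon. Distal values were 1025 and 1356 against 611 and 704. The groups did not overlap in either segment, with log2 fold changes of 2.14 (SE 0.293, adjusted p = 0.0704) and 0.84 (SE 0.177, adjusted p = 0.133) that were not called. DESeq2 called the proximal one (2.16, adjusted p = 3.1e-08), as it did 6.11% of genes. Without distal GA3T replicate 1 the distal one was called by limma (1.05, adjusted p = 0.0280).

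In the distal stroma the 2 deletions differed for Cxcl2, in the fit over the 12 stromal libraries. GS4T cells were above GA3T cells by a log2 difference of 1.78 (SE 0.397, interval 0.89 to 2.68, adjusted p = 0.0499), where 2.93% of genes were called. The call was lost without distal GS4T replicate 1 (1.29, adjusted p = 0.175), without distal GA3T replicate 1 (1.57, adjusted p = 0.196), without distal GA3T replicate 2 (1.99, adjusted p = 0.0819) and with a term for sex (1.52, adjusted p = 0.0985). In the proximal stroma the difference was 0.50 (interval -0.40 to 1.40, adjusted p = 0.697), which overlaps the distal interval, and whether the segments differ in this was not tested. Judged by Xist and Y-linked reads, all GS4T and distal GWTT libraries were female. Proximal GWTT replicate 1 and GA3T replicate 1 of each segment were male.

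Cxcl3 was close to absent from control stroma. It had 1 and 4 reads in proximal GWTT libraries, 1.03 and 4.10 normalized counts, and 210 and 70.8 normalized counts in proximal GS4T cells. In the distal colon Cxcl3 was 6.85 and 4.84 in GWTT cells and 1157 and 240 in GS4T cells. No GS4T library came near a control, although the GS4T libraries differed between themselves several-fold. Cxcl3 rose by log2 fold changes of 5.26 (SE 0.807, adjusted p = 0.0187) and 6.28 (SE 0.750, adjusted p = 0.00482), on a scale with 1 added to each count, which understates the change of so low a gene. As the controls were under 10, Cxcl3 entered the test through the knockout libraries. The proximal call was lost without proximal GS4T replicate 1 (4.48, adjusted p = 0.144) and without replicate 2 (6.04, adjusted p = 0.0787).

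In GA3T cells Cxcl3 was 44.1 and 100 against 1.09 and 4.31 in the proximal colon. It was 27.8 and 133 against 7.81 and 5.51 in the distal colon. Both GA3T libraries lay above both controls in each segment. Cxcl3 had log2 fold changes of 4.34 (SE 0.802, adjusted p = 0.0919) and 3.04 (SE 0.857, adjusted p = 0.182), uncalled by limma and called by DESeq2 (4.73, adjusted p = 0.000194, and 3.59, adjusted p = 0.00536). Without distal GA3T replicate 1 limma called the distal change (4.14, adjusted p = 0.0394). The distal GS4T minus GA3T difference of 3.29 (SE 0.970, interval 1.10 to 5.48) was not called (adjusted p = 0.103).

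Cxcl5, which is made largely by epithelial and stromal cells, was also higher in GS4T stroma, with smaller fitted log2 changes than Cxcl3. Cxcl5 was 15.5 and 68.7 normalized counts in proximal GWTT cells and 812 and 673 in proximal GS4T cells. Distally it was 217 and 183 in GWTT cells and 3819 and 4391 in GS4T cells. The GS4T libraries lay above the controls, and those of a segment were close to each other. Cxcl5 rose by log2 fold changes of 4.45 (SE 0.684, adjusted p = 0.0188) and 4.35 (SE 0.143, adjusted p = 0.000354). The proximal call was lost without proximal GS4T replicate 1 (4.31, adjusted p = 0.133) and without replicate 2 (4.58, adjusted p = 0.11), and the distal call was kept whichever library was left out.

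In proximal GA3T cells Cxcl5 was 1212 and 1984 against 16.3 and 72.2 in GWTT cells. In distal GA3T cells it was 682 and 5150 against 248 and 208. Both groups were above their controls, with a wide gap between the distal GA3T libraries. The fitted log2 changes of 5.45 (SE 0.721, adjusted p = 0.0704) and 3.04 (SE 0.908, adjusted p = 0.193) were not called. The proximal change was called without proximal GWTT replicate 2 (6.49, adjusted p = 0.0344), and the distal one without distal GA3T replicate 1 (4.50, adjusted p = 0.00697). DESeq2 called both (5.17, adjusted p = 5.19e-06, and 3.67, adjusted p = 0.0432). The proximal minus distal effect of 2.40 had an interval of -0.36 to 5.17 (adjusted p = 0.754). In that fit limma and edgeR called 0% of genes, with 510 in limma that passed p under 0.05 and the fold limit before adjustment.

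Cxcl12, a chemokine that holds Cxcr4+ cells in place and a product of most tissue fibroblasts, was the highest ligand of control stroma and the only ligand called lower. Cxcl12 was 28171 and 24701 normalized counts in distal GWTT cells and 7823 and 9218 in distal GS4T cells. In the proximal colon it was 18410 and 21987 in GWTT cells and 16335 and 13666 in GS4T cells. Both GS4T libraries lay below both controls in each segment. Distal Cxcl12 fell by 1.64 on the log2 scale (SE 0.156, adjusted p = 0.00265), a 3.11-fold change, and the call was kept whichever library was left out. The proximal change was -0.43 (SE 0.176, adjusted p = 0.158). The proximal minus distal difference, 1.19 (interval 0.55 to 1.83), was not called (adjusted p = 0.196).

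In GA3T cells Cxcl12 was 21692 and 19171 against 19369 and 23118 in the proximal colon, where the groups overlapped. It was 22539 and 16130 against 32137 and 28110 in the distal colon, where both knockout libraries were lower. The log2 fold changes were -0.05 (SE 0.189, adjusted p = 0.895) and -0.66 (SE 0.243, adjusted p = 0.249). In the distal colon Cxcl12 was lower in GS4T than in GA3T cells by a difference of -0.96 (SE 0.202, interval -1.42 to -0.51, adjusted p = 0.0435). That call was lost without distal GS4T replicate 1 (-0.84, adjusted p = 0.151), without distal GS4T replicate 2 (-1.08, adjusted p = 0.0881), without distal GA3T replicate 1 (-0.73, adjusted p = 0.156) and with sex as a term (-0.90, adjusted p = 0.0913). In the proximal colon the difference was -0.37 (interval -0.83 to 0.08, adjusted p = 0.565).

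Cxcl13 was 774 and 736 normalized counts in distal GWTT cells and 3347 and 9513 in distal GS4T cells, all above the controls. In the proximal colon Cxcl13 was 290 and 78.9 in GWTT cells and 1210 and 226 in GS4T cells, and replicate 2 of GS4T lay within the range of the controls. The distal rise of 2.90 (SE 0.451, adjusted p = 0.00973) was called and was kept whichever library was left out. The proximal change of 1.78 (SE 0.963, adjusted p = 0.255) was not called. A list of 6 markers of B cells and follicular dendritic cells, tied to Cxcl13 in lymphoid follicles, was summed. The sum was 593 to 703 in distal GWTT and 51.4 to 130 in distal GS4T cells. There 3 of 5 tested genes were called lower, as were 6.08% of all genes. The proximal sum was 245 to 420 in GWTT and 113 to 142 in GS4T cells, with none called. In GA3T cells it was 168 to 214 proximally, against 256 to 428 in GWTT cells. The distal GA3T sum of 356 to 903 overlapped the 676 to 800 of GWTT cells, with none called in either segment.

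In GA3T cells Cxcl13 was 384 and 970 against 305 and 83.0 in the proximal colon. It was 1384 and 3084 against 884 and 837 in the distal colon. All GA3T libraries lay above the controls of their segment. Log2 fold changes of 1.93 (SE 0.746, adjusted p = 0.231) and 1.26 (SE 0.371, adjusted p = 0.190) were not called by limma. Without distal GA3T replicate 1 the distal change was called (1.84, adjusted p = 0.00723), as it was by DESeq2 with all libraries (1.37, adjusted p = 0.00647).

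Cxcl14, which attracts monocytes and dendritic cells, separated knockout from control stroma in every comparison. Cxcl14 was 552 and 865 normalized counts in proximal GWTT cells and 8304 and 7873 in proximal GS4T cells. The distal values were 1646 and 2002 in GWTT cells and 14325 and 14110 in GS4T cells. The GS4T libraries agreed closely within each segment and stood far above the controls. Cxcl14 rose 11.7-fold in the proximal (log2 fold change 3.55, SE 0.222, adjusted p = 0.00412) and 7.83-fold in the distal colon (2.97, SE 0.131, adjusted p = 0.000552). The proximal call was lost without proximal GS4T replicate 1 (3.51, adjusted p = 0.0542) and kept without replicate 2.

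In proximal GA3T cells Cxcl14 was 6237 and 8316 against 581 and 909 in GWTT cells. In distal GA3T cells it was 8205 and 13288 against 1878 and 2278. No knockout library overlapped a control. The proximal rise of 3.31 (SE 0.263, adjusted p = 0.0489) was called, and was lost without proximal GWTT replicate 1 (2.98, adjusted p = 0.161) or without proximal GA3T replicate 2, the library with little Gli1 (3.10, adjusted p = 0.0908). The distal change of 2.33 (SE 0.255, adjusted p = 0.0761) was not called by limma and was called by DESeq2 (2.37, adjusted p = 9.74e-15). Without distal GA3T replicate 1 limma called it too (2.68, adjusted p = 0.00723). The distal GS4T minus GA3T difference in Cxcl14 was 0.65 (SE 0.266, adjusted p = 0.214).

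Cxcl16, which exists as a membrane-bound and a shed form, changed little. Cxcl16 was 786 and 569 normalized counts in proximal GWTT cells and 1223 and 822 in proximal GS4T cells. Its distal values were 504 and 484 in GWTT cells and 999 and 725 in GS4T cells. The GS4T libraries lay above the controls, with log2 fold changes of 0.58 (SE 0.251, adjusted p = 0.174) and 0.78 (SE 0.181, adjusted p = 0.0303), the latter under the fold limit. Without distal GS4T replicate 2 the distal value reached the limit (1.02, adjusted p = 0.0108). Zmynd15, on the other strand, was 224 and 186 in distal GWTT and 476 and 316 in distal GS4T cells. In GA3T cells Cxcl16 was 863 and 812 against 827 and 598 in the proximal and 768 and 924 against 575 and 551 in the distal colon. The groups overlapped in the former only, with log2 fold changes of 0.25 (SE 0.188, adjusted p = 0.482) and 0.58 (SE 0.144, adjusted p = 0.156).

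Other genes of the pathway were taken from fixed lists. Of 8 CXC receptors only Cxcr2, the receptor of the neutrophil-attracting ligands and a gene of neutrophils, was called in the stroma, higher in distal GS4T cells by 5.76 (adjusted p = 0.00603). Of 7 other CXC ligands Ppbp, a platelet chemokine, was higher there (6.84, adjusted p = 0.0250), and no other was called in the stroma. The control counts of Cxcr2 and Ppbp are not given here. If under 10, these genes passed the filter through the knockout libraries alone, and their calls are then no support. Of 10 IL-1 and IL-17 receptors and adaptors 3 rose in GS4T cells of both segments. Il1rn, the soluble IL-1 receptor antagonist, rose by 3.70 and 4.12, and Il1r1, the signaling IL-1 receptor, by 1.58 and 1.66. Il1r2, the decoy receptor, rose by 1.44 and 1.39. Of all genes 5.24% were called higher and 4.36% lower in proximal, and 7.86% and 6.08% in distal GS4T cells. In proximal GA3T cells 0.345% were called higher. Without proximal GS4T replicate 2 the proximal call of Il1r1 was kept (1.74, adjusted p = 0.0269), and those of Il1rn (3.95, adjusted p = 0.0522) and Il1r2 (1.39, adjusted p = 0.184) were lost. Il1r1 also rose in proximal GA3T cells (1.30, adjusted p = 0.0496), a call lost without proximal GA3T replicate 2 (1.18, adjusted p = 0.0996). Of 8 NF-κB feedback genes Zfp36, which destabilizes mRNA, fell by 1.31 in proximal GS4T cells, uncalled without replicate 2 (-1.24, adjusted p = 0.111), and Tnfaip3 (1.25) and Zc3h12a (1.13), which restrain NF-κB signaling and degrade mRNA, rose in distal GS4T cells.

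Over the 12 stromal libraries, genes whose log2 levels followed each ligand most closely among 13915 genes were listed as a description, since libraries of 1 group share their genotype. For Cxcl1 they were Il6 (Pearson r = 0.883) and Slc25a25 (0.856). For Cxcl2 they were Itgam (0.986), a gene of macrophages and neutrophils, Ctsc (0.986) and Stc1 (0.985), and for Cxcl3 Stc1 (0.996), Tbc1d9 (0.985) and Pkm (0.984). For Cxcl5 they were Igfbp4 (0.981), E2f3 (0.975) and Chrdl2 (0.968), and for Cxcl12 Phf1 (0.974), Hcar1 (0.974) and Kifc2 (0.971). For Cxcl13 they were Wfs1 (0.969), Mfsd11 (0.96) and Phlda1 (0.937), for Cxcl14 Cdk1 (0.993) and Mex3a (0.986), and for Cxcl16 its overlapping neighbour Zmynd15 (0.923), Gtf3c6 (0.903) and Dbt (0.898). Cxcl1 and Cxcl2, neighbours on the chromosome, thus had different companions in the stroma.

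**Figure D3:**
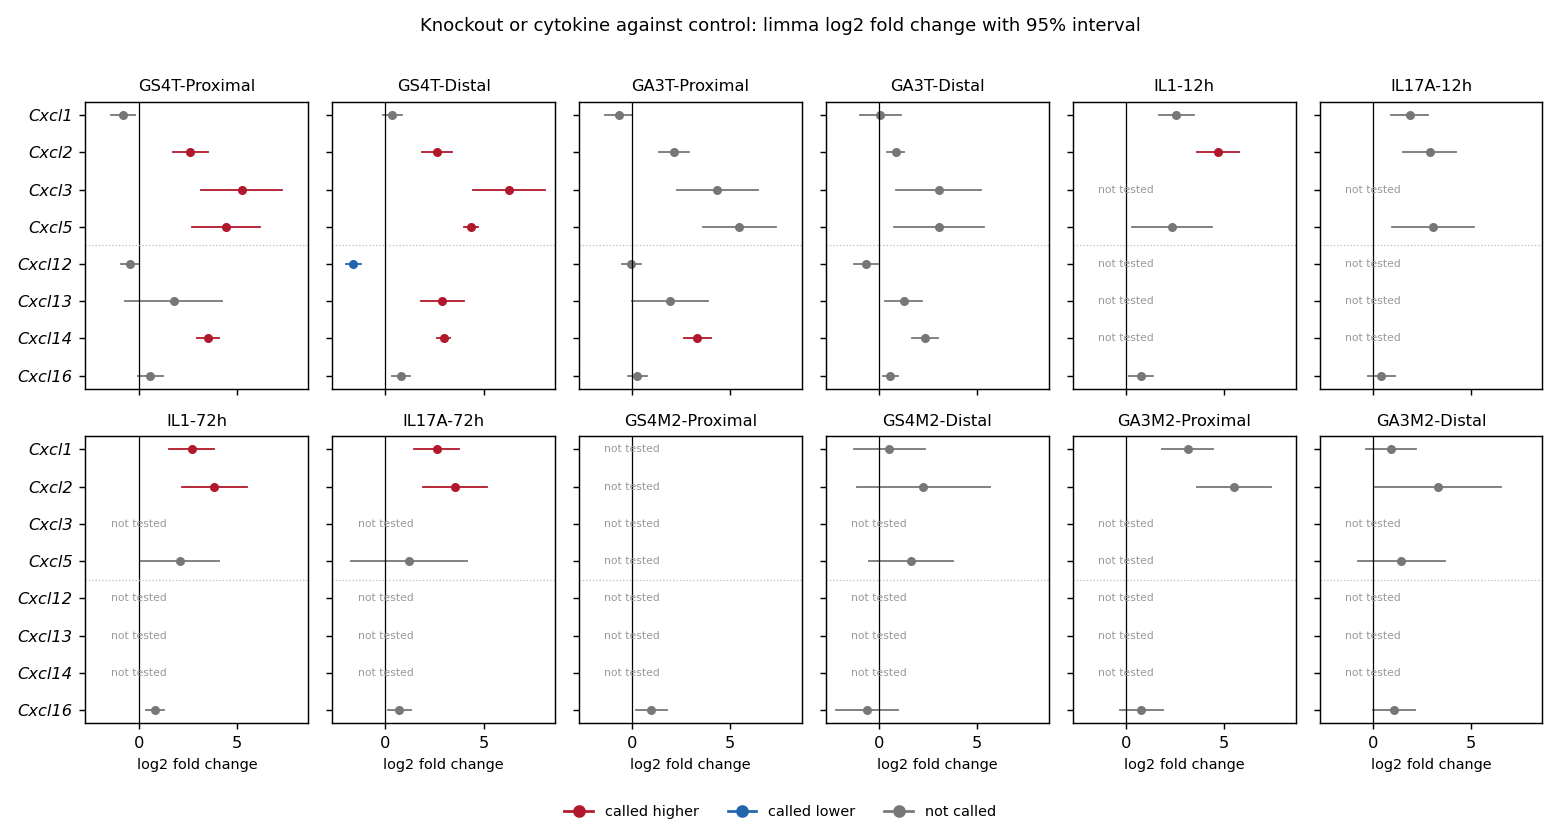
Log2 fold changes of the ligands in the 12 comparisons, 1 panel each, from limma on log2(normalized count + 1), with 95% intervals. Red points are called higher, blue ones lower and grey ones not called. Calls cluster in the GS4T panels (4 proximal and 6 distal) and in Cxcl1 and Cxcl2 of the IL-1 and IL-17A panels at 72 h, and no goblet cell panel holds one.

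Goblet cells held little of these ligands. In GWTM2 cells the highest mean level per length was 0.601 for Cxcl16 in the proximal and 1.02 for Cxcl1 in the distal colon. No ligand was called in any of the 4 goblet cell comparisons, in which limma called 0.325% (proximal GS4M2), 0% (distal GS4M2), 0.0899% (proximal GA3M2, 0.0375% higher and 0.0525% lower) and 0% (distal GA3M2) of genes. Before adjustment 353 genes of distal GS4M2 and 539 of distal GA3M2 cells passed p under 0.05 and the fold limit, and the calls of DESeq2 were 150 and 244. Cxcl3 and Cxcl14 had no row in any of these tables. The groups did not overlap for 1 of 1 tested ligand in proximal GS4M2, 2 of 4 in distal GS4M2, 3 of 3 in proximal GA3M2 and 3 of 4 in distal GA3M2 cells, each time with the knockouts above, where 25%, 23.1%, 26% and 22.1% of all genes had both libraries above. Cxcl1 and Cxcl2 in proximal GA3M2 cells and Cxcl2 in the distal tables averaged under 10 in the controls and passed the filter through the knockouts, so that these counts are no support.

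Muc2, which defines goblet cells, was 179572 and 224217 normalized counts in proximal GWTM2 cells, against 18753 and 14042 with Alk3 deleted in the stroma. Neutrophil markers were higher in knockout libraries beside the ligands, with none called (0 of 1 tested in proximal and 0 of 4 in distal GA3M2 cells). The 4 listed neutrophil markers summed to 11.4 to 23.8 in proximal GWTM2 and 377 to 1590 in proximal GA3M2 cells, nearly all of it Ly6g (338 to 1551). Ly6g was also 97.7 to 227 in proximal GS4M2 cells against 6.48 to 18.03 in their controls, and 2012 to 13521 in the IL-1 organoids of epithelium and their controls at 72 h. S100a8, which neutrophils hold in large amounts, was at 0 in both controls and at 10.1 to 15.1 in GA3M2 cells. Distally the sum was 140 to 170 in GWTM2 and 1275 to 2077 in GA3M2 cells. Of the macrophage markers, 1 of 6 tested was called higher in proximal GA3M2 cells, where 0.0375% of all genes were. In distal GA3M2 cells 0 of 5 were called. The 8 macrophage markers listed proximally summed to 218 to 243 in GWTM2 and 620 to 836 in GA3M2 cells. The part of neutrophils and macrophages in the ligand values was not tested.

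In proximal goblet cells Cxcl1 was 7.31 and 5.71 normalized counts in the controls and 89.6 and 47.0 with GA3M2. Distally Cxcl1 stood at 46.1 and 19.7 in the controls and at 65.6 and 51.8 with GA3M2. Both GA3M2 groups lay above their controls, proximally by a wide margin. The fitted log2 changes were 3.14 (SE 0.538, adjusted p = 0.138) and 0.93 (SE 0.511, adjusted p = 0.540). DESeq2 called the proximal change (3.38, adjusted p = 0.000815), as it did 2.83% of genes, and limma did so without proximal GA3M2 replicate 1 (2.69, adjusted p = 0.0450). In distal GS4M2 cells Cxcl1 was 25.6 and 80.9 against 48.2 and 20.4, and the groups overlapped (0.53, SE 0.714, adjusted p = 0.798).

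In proximal GS4M2 cells Cxcl1 was 9.46 and 8.14 against 6.87 and 5.40, under the filter and untested. In 1 fit over the 12 goblet cell libraries the proximal GS4M2 minus GA3M2 difference in Cxcl1 was -2.66 (SE 0.592, adjusted p = 0.0711). Between the segments of control goblet cells Cxcl1 differed by -2.16 proximal minus distal (SE 0.592, adjusted p = 0.118). For the proximal GS4M2 table, headings in the study's supplement name the groups the other way round. Values here follow the deposited column names, under which its GWTM2 reads equal those in the GA3M2 table, and each proximal GS4M2 change would have the opposite sign under those headings.

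Cxcl2 had no read in either proximal GWTM2 library and 58 and 37 reads in the proximal GA3M2 libraries. The GA3M2 mean of 46.2 normalized counts was at least 15.0-fold higher than the limit of 3 reads per control library. Its fitted log2 fold change was 5.51 (SE 0.780, adjusted p = 0.0956), and it entered the test through the knockout libraries alone. DESeq2 called it (7.94, adjusted p = 0.00022), and limma did so without proximal GA3M2 replicate 1 (5.13, adjusted p = 0.0338). In distal goblet cells Cxcl2 was 12.5 and 0 with GWTM2 and 30.3 and 41.2 with GA3M2, without overlap (3.31, adjusted p = 0.420). In distal GS4M2 cells it was 16.1 and 17.5 against 13.0 and 0, also without overlap (2.25, SE 1.32, adjusted p = 0.568). Without distal GWTM2 replicate 1, the control with reads of Cxcl2, the distal GA3M2 and GS4M2 changes were 5.18 and 4.15. That library was also the only female one of these comparisons, and leaving it out left 1 control.

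Cxcl5 was 19.2 and 3.28 normalized counts in distal GWTM2 and 31.3 and 19.2 in distal GA3M2 cells, which overlapped (1.46, SE 0.881, adjusted p = 0.569). In distal GS4M2 cells Cxcl5 was 26.6 and 30.3 against 20.1 and 3.40, above both controls (1.61, SE 0.837, adjusted p = 0.533). In the proximal colon it stayed under the filter, at 0.858 and 0 in GWTM2 and 32.6 and 6.11 in GS4M2 cells, and at 0.914 and 0 against 18.1 and 4.61 in GA3M2 cells. The controls of the proximal colon thus had 1 read in all. Between segments of control goblet cells the difference was -2.81 (SE 0.958, adjusted p = 0.226).

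Cxcl16 was the only ligand tested in all 4 goblet cell tables. Proximally Cxcl16 was 33.8 and 32.0 normalized counts in the controls and 41.3 and 79.3 with GA3M2. Distal values were 28.8 and 19.7 in the controls and 45.0 and 60.4 with GA3M2. The GA3M2 libraries lay above their controls, with log2 fold changes of 0.78 (SE 0.444, adjusted p = 0.422) and 1.10 (SE 0.426, adjusted p = 0.420). In proximal GS4M2 cells Cxcl16 was 51.5 and 74.3 against 31.8 and 30.2, above the controls (0.98, SE 0.328, adjusted p = 0.226). In distal GS4M2 cells it was 9.49 and 25.7 against 30.1 and 20.4, with overlap (-0.62, SE 0.614, adjusted p = 0.711). Cxcl12 appeared in proximal GA3M2 cells alone, at 11.1 and 6.46 against 0 and 2.28, and Cxcl13 in distal GA3M2 cells alone, at 15.7 and 9.59 against 2.88 and 9.83, both untested.

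**Figure D4:**
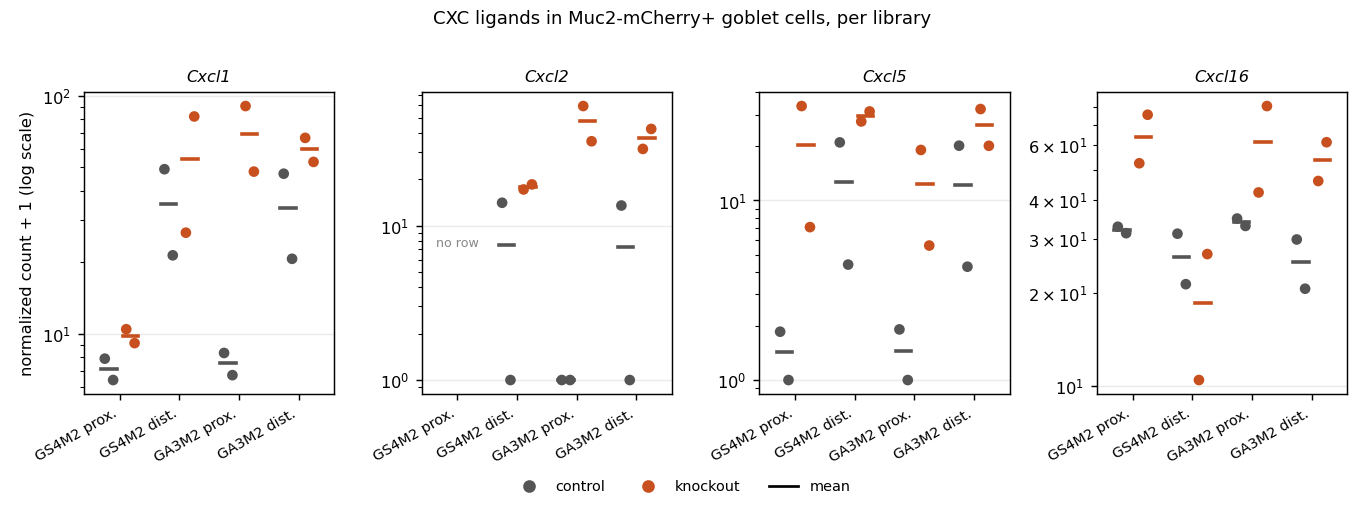
Normalized counts (plus 1, log axis) of Cxcl1, Cxcl2, Cxcl5 and Cxcl16 in each library of Muc2+ goblet cells, with GWTM2 controls in grey, GS4M2 and GA3M2 cells in orange and bars at the group means. In the proximal colon Cxcl2 is at 0 in both controls and at 58.4 and 34.1 in GA3M2 cells, and Cxcl16 stays between 9.49 and 79.3 throughout.

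To explore which of these ligands the epithelium itself makes under cytokines, organoids were compared with untreated ones at each time. Cxcl1 and Cxcl2 were the ligands that rose, Cxcl2 after IL-1 at 12 h and both after either cytokine at 72 h. At 12 h limma called 1 of 4 tested ligands after IL-1 and 0 of 4 after IL-17A, where 0.0542% and 0.0385% of genes were called. Before adjustment 119 genes for IL-1 and 140 for IL-17A passed p under 0.05 and the fold limit at 12 h, and DESeq2 called 2 of the 4 ligands for each cytokine, at 0.314% and 0.362% of genes. At 72 h 2 of 4 were called after each, where 23% and 7.94% of genes were called, 10.9% and 5.02% higher, 12.2% and 2.92% lower. In counts of libraries, all treated libraries lay above all untreated ones for 2 (IL-1) and 3 (IL-17A) of the 4 tested ligands at 12 h and for 3 and 3 at 72 h, against 5.31%, 5.91%, 27% and 21.7% of all genes. Cxcl2 averaged under 10 in untreated organoids and passed the filter through the treated libraries at both times, so that its place in these counts and in the medians is no support.

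The median log2 fold change of the 3 tested neutrophil-attracting ligands was 2.56 after IL-1 and 2.91 after IL-17A at 12 h, and 2.69 and 2.61 at 72 h, beside medians of all genes between -0.01 and 0.01. Untreated organoids at 12 h had mean levels per length of 8.49 for Cxcl16, 3.19 for Cxcl5, 0.606 for Cxcl1 and 0.0466 for Cxcl2. After IL-1 the order was kept at 12 h, with 14.0, 11.3, 3.38 and 1.98. After IL-17A at 12 h Cxcl5 came first at 18.9, before Cxcl16 at 11.1, Cxcl1 at 2.11 and Cxcl2 at 0.569. The ranges of Cxcl16 and Cxcl5 overlapped in all 3 groups at 12 h, as did those of Cxcl5 and Cxcl1 in untreated organoids. Within each single library these pairs kept the order of their group means, and the order was not tested. Of the markers, the neutrophil list had 2 rows, led by Ly6g at 2122 to 2726 in untreated and 3103 to 3549 in IL-1 organoids at 12 h, in epithelial cultures. At 72 h Ly6g was 2012 to 2259 in untreated and 8180 to 13521 in IL-1 organoids, and its part in the ligand values was not tested. At 72 h the 7 goblet cell markers summed to 105060 to 111910 in untreated and 45771 to 175749 in IL-1 organoids, and to 104847 to 111685 and 44001 to 171697 in the IL-17A table, with none called. The 8 epithelial markers summed to 154301 to 169351 and 221731 to 243567 in the IL-1 table (1 called higher), and the 4 listed stromal markers to 136 to 283 and 230 to 1151 (1 of 2 tested called higher). The part of these shifts in the ligand values was not tested.

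The sex of the libraries was uneven over the groups. At 12 h the untreated replicates 1 and 2 and replicate 1 of each cytokine were male and the others female, and at 72 h the 3 IL-17A libraries were male while untreated replicates 2 and 4 were female. In the 12 h tables the male treated library was the lowest treated one for Cxcl2, Cxcl5 and Cxcl16, and it still exceeded both male untreated libraries for Cxcl1, Cxcl2, Cxcl5 and, after IL-1, Cxcl16.

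Cxcl1 was 25.3, 9.36 and 19.4 normalized counts in untreated organoids and 101, 98.2 and 111 after IL-1 at 12 h. With IL-17A at 12 h Cxcl1 was 55.2, 78.1 and 70.7, against 26.6, 9.80 and 20.4 in that table. All treated libraries lay above all untreated ones. The log2 fold changes of 2.56 (SE 0.376, adjusted p = 0.163) and 1.88 (SE 0.400, adjusted p = 0.485) were not called by limma, and DESeq2 called them (2.52, adjusted p = 2.95e-08, and 1.85, adjusted p = 0.00481). The IL-1 minus IL-17A difference of 0.68 had an interval of -0.15 to 1.51 (adjusted p = 1), where limma and edgeR called 0% of genes at either time, with 24 at 12 h and 69 at 72 h that passed p under 0.05 and the fold limit in limma before adjustment.

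At 72 h Cxcl1 was 8.87, 24.8 and 18.7 in untreated organoids and 166, 115 and 69.1 after IL-1. With IL-17A it was 104, 72.5 and 146, against 8.85, 24.6 and 18.6. Treated and untreated libraries were again apart. Cxcl1 rose by log2 fold changes of 2.69 (SE 0.494, adjusted p = 0.00638) and 2.61 (SE 0.483, adjusted p = 0.0356). The IL-1 call was kept without any single library. The IL-17A call was lost without any of the 3 untreated libraries or without IL-17A replicate 1 or 3, with values of 2.22 to 2.91. With only the untreated library that belongs to 72 h alone, the values were 2.10 (adjusted p = 0.115) and 2.03 (adjusted p = 0.458). The effect of IL-17A at 72 h exceeded that at 12 h by 0.75, with an interval of -0.21 to 1.70 (adjusted p = 0.233), where 12.4% of genes were called, 7.04% higher and 5.41% lower.

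Cxcl2 had 1 or 2 reads in each untreated library at 12 h, 0.936 to 1.87 normalized counts, and stood at 39.0, 82.2 and 79.2 after IL-1. With IL-17A at 12 h Cxcl2 was 9.37, 29.7 and 21.3, against 0.980 to 1.97. Every treated library was above every untreated one, and Cxcl2 passed the filter through the treated libraries, at 72 h as well. The IL-1 change was 4.69 (SE 0.453, adjusted p = 0.0418), a 25.9-fold rise, and the IL-17A change was 2.91 (SE 0.570, adjusted p = 0.418). The former call was lost when any 1 of the 6 libraries was left out, with values of 4.51 to 5.04 and adjusted p of 0.0981 to 0.512, and with untreated replicate 1 as the only control (4.48, adjusted p = 0.560). DESeq2 called the IL-17A change (3.65, adjusted p = 0.0174).

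IL-1 gave more Cxcl2 than IL-17A at 12 h by a log2 difference of 1.81 (SE 0.530, interval 0.66 to 2.96), which was not called (adjusted p = 1). At 72 h Cxcl2 was 0.887, 7.62 and 1.70 in untreated organoids and 59.0, 77.7 and 27.4 after IL-1. With IL-17A it was 52.6, 26.3 and 46.6, against 0.885, 7.58 and 1.69. The groups did not overlap. Cxcl2 rose by 3.86 (SE 0.714, adjusted p = 0.00648) and 3.55 (SE 0.691, adjusted p = 0.0396). The IL-1 call was kept without any single library. The IL-17A call was lost without any untreated library or without IL-17A replicate 1 or 3, with values of 3.10 to 4.19. With the 1 untreated library of 72 h alone the changes were 2.57 (adjusted p = 0.119) and 2.26 (adjusted p = 0.458). The effect of IL-1 at 72 h minus that at 12 h was -0.80 (interval -2.13 to 0.53, adjusted p = 0.331), where 26.5% of genes were called.

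Cxcl5 was 65.6, 16.8 and 197 normalized counts in untreated organoids and 165, 411 and 455 after IL-1 at 12 h. With IL-17A at 12 h Cxcl5 was 271, 749 and 784, against 68.9, 17.6 and 206. The IL-17A libraries were all above the untreated ones, and the IL-1 libraries overlapped them. Cxcl5 had log2 fold changes of 2.35 (SE 0.855, adjusted p = 0.886) and 3.07 (SE 0.870, adjusted p = 0.778), and neither was called by limma or DESeq2.

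At 72 h Cxcl5 was 448, 408 and 185 after IL-1, against 16.0, 137 and 189. With IL-17A it was 430, 31.1 and 372, against 15.9, 136 and 189. Both overlapped the untreated libraries, which themselves spread widely. The fitted log2 changes were 2.09 (SE 0.858, adjusted p = 0.0880) and 1.18 (SE 1.25, adjusted p = 0.505), and DESeq2 called the former (1.60, adjusted p = 0.0383). The IL-17A effect on Cxcl5 at 72 h minus that at 12 h was -1.88, with an interval of -4.42 to 0.66 (adjusted p = 0.261). Cxcl3 was listed only in the IL-1 table at 72 h, at 0, 0 and 0.848 in untreated and 8.43, 2.99 and 2.19 in treated organoids, too low to be tested.

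Cxcl16, the highest homeostatic ligand of the epithelium, was 311, 374 and 529 normalized counts in untreated organoids and 486, 792 and 797 after IL-1 at 12 h. With IL-17A at 12 h Cxcl16 was 381, 679 and 668, against 327, 392 and 554. The groups overlapped in both. The log2 fold changes were 0.77 (SE 0.268, adjusted p = 0.886) and 0.43 (SE 0.289, adjusted p = 0.926).

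At 72 h Cxcl16 was 872, 711 and 762 after IL-1, against 355, 462 and 508. With IL-17A it was 687, 553 and 956, against 354, 459 and 507. All treated libraries were above the untreated ones. The IL-1 change of 0.83 (SE 0.187, adjusted p = 0.0121) was under the fold limit, and that of IL-17A was 0.71 (SE 0.255, adjusted p = 0.0918). Zmynd15 overlapped between the groups in both tables, at 13.3 to 34.3 in untreated and 10.1 to 61.8 in treated libraries. Cxcl13 was listed in the IL-1 table at 72 h alone, at 1.77, 0.953 and 1.70 against 0, 4.98 and 7.68, and Cxcl12 and Cxcl14 were in none of the organoid tables.

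**Figure D5:**
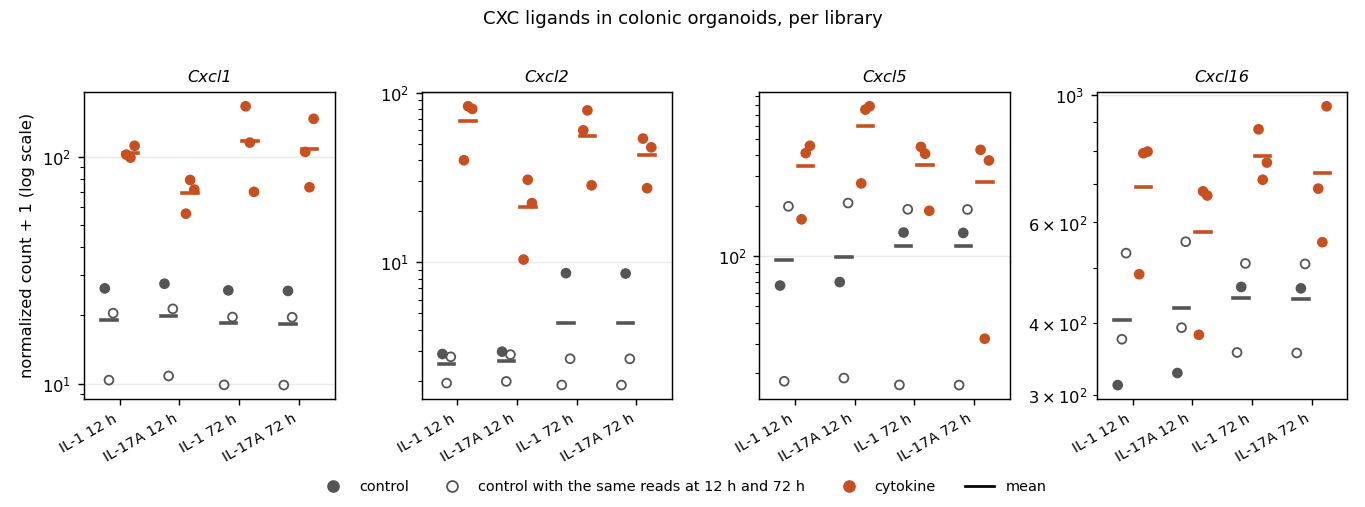
Normalized counts (plus 1, log axis) of Cxcl1, Cxcl2, Cxcl5 and Cxcl16 in each organoid library, with untreated organoids in grey and treated ones in orange. Open circles are untreated libraries whose reads occur under both times, and bars are group means. Cxcl2 is at 0.885 to 7.62 in untreated and at 9.37 to 82.2 in treated libraries, whereas Cxcl5 overlaps in 3 of 4 comparisons.

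Among the NF-κB feedback genes Nfkbia, the inhibitor that NF-κB itself induces, and Nfkbiz, a cofactor of IL-17 target genes, rose with IL-1 at 12 h (1.20 and 1.42, adjusted p = 0.0418 each). With IL-17A at 12 h Nfkbiz (2.34, adjusted p = 0.00126) and Zc3h12a (2.62, adjusted p = 0.0261) rose. At 72 h 6 of 8 rose with each cytokine: Nfkbia, Nfkbiz, Zc3h12a, Tnfaip3, Zfp36 and Birc3. Their log2 fold changes were 1.26 to 2.40 after IL-1 and 1.46 to 3.18 after IL-17A. Of all genes 0.0542% (IL-1) and 0.0385% (IL-17A) were called higher at 12 h, and 10.9% and 5.02% at 72 h. Whether these list calls hold with single libraries left out or the closest ones averaged is not given here. Of the other CXC ligands Pf4 rose with IL-1 at 72 h (1.64, adjusted p = 0.0403), and of the receptors and adaptors Il17rc (1.05). No CXC receptor passed the filter in any organoid table.

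Over the 16 distinct organoid libraries, the genes most like Cxcl1 among 11868 were Tnfaip3 (Pearson r = 0.956), Nos2 (0.954) and Birc3 (0.951), and those most like Cxcl2 were Cxcl1 (0.948), Nos2 (0.923) and Tnfaip3 (0.905). For Cxcl5 they were Cpm (0.894), Il33 (0.877) and C4bp (0.874), and for Cxcl16 Rap2c (0.967), Ctnna1 (0.947) and Dtx3l (0.945). The lists of Cxcl1 and Cxcl2 shared 2 genes here, Nos2 and Tnfaip3, and Cxcl2 followed Cxcl1 more closely than any other gene. These values describe libraries that share treatment, and carry no test.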

How the data were processed

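RNA-seq was analysed from 12 deposited tables covering 42 samples (40 distinct libraries). Per the submitters' processing notes and the study's methods, the authors checked reads with FastQC, mapped them uniquely to mm10 with STAR 2.5.3 and normalized gene counts with DESeq2 1.28.1. The deposited values are thus a signal, normalized counts, scaled within each table. The counter, annotation and strand setting are not given in the sources used here. Each value was a whole multiple of 1 step per library (0.752 to 1.26, tolerance 0.001), so that whole reads were recovered. The tables listed only rows above some minimum (lowest row mean 1.72 to 7.39), and a ligand without a row was not analysed there. In both tables of GS4M2 cells 4 rows without a gene name held up to 28.2% of reads and were left out.

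Samples were grouped by their labels. The 2 groups of each table were compared in R 4.3.3 with limma 3.58.1 (trend) on log2(normalized count + 1), genes with a mean of at least 10, Benjamini-Hochberg over all of them, called where the adjusted p was below 0.05 with a log2 fold change of 1 or more in either direction. Fold changes are on that scale. Differences between effects, cell types and segments were fitted on recovered reads with median-of-ratios scaling over the 12 stromal, 12 goblet cell, 24 sorted (cell types) or 16 organoid libraries and called at an adjusted p under 0.05, with the fold limit also for cell types and segments. Each distinct organoid library entered once, where the 18 samples had been planned. Levels per length used GENCODE M21 exons. Alternatives were pseudocounts of 0.1 and 10, no filter and a mean of 50, upper-quartile scaling, no adjustment of p, a block for the replicate number, edgeR 4.0.16 and DESeq2 1.42.0 on recovered reads, and each library left out. A sex term, untreated libraries of 1 time only, the closest organoid libraries averaged and fits over all libraries were added after seeing the data. Scripts were tested on simulated data. A count of 0 allows 3 reads, and such limits cover counting error only. The ligands and lists were chosen with earlier results of these data known. All 8 ligands are named in each table that lists them, and list genes by value where called. Of the 3 genes most like each ligand, some are not reported here.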

Additional observations from a re-analysis of the deposited data

Results flagged for a closer look

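In distal stroma the effects of the 2 deletions differed by a test of the difference itself for 2 ligands. The GS4T minus GA3T difference was 1.78 for Cxcl2 (adjusted p = 0.0499) and -0.96 for Cxcl12 (adjusted p = 0.0435), from limma over the 12 stromal libraries with 2 per group. The proximal differences were 0.50 and -0.37, and whether the segments differ was not tested. Of all genes 2.93% were called in the distal comparison. Both calls were lost when single libraries were left out or with sex as a term.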

How the results depend on the processing

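Of 1330 values of single ligands under an alternative, 1196 kept direction and side of the threshold, 55 lost and 72 gained a call, and 7 changed sign, 0 of them among the 27 called pairs of ligand and comparison. Settings not named below changed no count of called ligands by more than 1.5 times.

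For IL-1 at 12 h 1 ligand was called. A pseudocount of 10, a mean of 50, edgeR, the untreated libraries of 1 time and averaging the closest libraries each gave 0, the unadjusted p 3, DESeq2 2 and the fit over all organoids 2, and leaving out 1 library 0 to 0. For IL-17A at 12 h the count of 0 became 3 with the unadjusted p and 2 with DESeq2. For IL-1 at 72 h the 2 became 1 with a mean of 50 and 0 with the untreated libraries of 1 time. For IL-17A at 72 h the 2 became 1 with a mean of 50, 0 with the sex term, 0 with the untreated libraries of 1 time, 0 with the closest averaged and 0 to 2 with 1 library left out.

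In proximal GS4T stroma 4 were called, and 0 to 4 with 1 library left out. In proximal GA3T stroma 1 became 0 with a pseudocount of 0.1, upper-quartile scaling or edgeR, 5 with the unadjusted p, 4 with DESeq2, 3 with the sex term, 4 with the fit over all libraries and 0 to 2 with 1 left out. In distal GA3T stroma 0 became 4 with the unadjusted p or DESeq2, 5 with the sex term, 1 with the fit over all libraries and 0 to 5 with 1 left out.

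In goblet cells 0 became 1 with the sex term and 0 to 1 with 1 left out in distal GS4M2, 2 with the unadjusted p or DESeq2 and 0 to 2 with 1 left out in proximal GA3M2, and 2 with the unadjusted p, 1 with the sex term and 0 to 1 with 1 left out in distal GA3M2 cells. The 2 calls of distal GS4T minus GA3T became 1 with upper-quartile scaling or edgeR, 0 with the sex term and 0 to 1 with 1 left out, and the 1 of proximal minus distal GWTT 0 to 1. The causes were not tested.

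With the replicate number as a block, 3 ligands were called for IL-1 at 12 h, 3 for IL-17A at 12 h, 0 for IL-17A at 72 h, 3 in proximal and 1 in distal GA3T, 2 in proximal GA3M2, 1 for distal GS4T minus GA3T and 1 for proximal GS4M2 minus GA3M2. Each comparison shared only 2 numbers, and same-numbered libraries correlated at 0.62 to 0.64 at 12 h and -0.19 to 0.30 elsewhere. At 12 h replicate 1 was male and replicate 4 female in each group. Pairing by number thus cannot be told from sex there. The labels give no pairing and the main fits used none, so the 12 h calls ignore a pairing that may exist.

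Without single libraries the sign changed for Cxcl12 in proximal GA3T (-0.18 to 0.0743), Cxcl1 in distal GA3T (-0.52 to 0.67), and Cxcl1 (-0.28 to 1.34) and Cxcl16 (-1.30 to 0.0524) in distal GS4M2 cells, none of them called. With 1 library left in a group of 2, that library was assumed to vary like the others. Counts of all genes called moved as well: for IL-1 at 12 h 7 genes became 100 with the block, 46 with DESeq2 and 119 with the unadjusted p.

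Depth limited the rows of a few reads (Cxcl3 in control stroma, Cxcl2 in untreated organoids and proximal goblet cells), and 29 pairs of ligand and table had no row.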
